A study of Mus musculus with 125 samples.

Results

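Open chromatin of liver endothelium was compared between adult mice and mouse pups labelled P6 (postnatal day 6). The regions were taken from 4 ATAC-seq libraries, 2 adult and 2 P6, of 66 ATAC-seq samples in the series, which also holds RNA-seq. ATAC-seq cuts accessible DNA with a transposase, so that a pile-up of cuts, called a peak, marks open chromatin. The peak list of each library was cut to the 37022 peaks with the highest −log10(q), the length of the shortest list, and overlapping peaks were joined into 50746 regions. A region was called gained when both adult lists and neither P6 list held a peak there, and lost when both P6 lists and neither adult list did. This gave 3266 gained regions (6.44% of all regions) and 3665 lost regions (7.22%).

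The adult mice were 2 months old and received tamoxifen by intraperitoneal injection 7 days before tissue collection. The P6 pups received it under the skin on postnatal days 1 and 3, and the protocol places their collection on day 7, although the label reads P6. Both ages received 0.015 mg per kg, and GFP in the vessels was checked in each sample. The labels give neither the Cre driver, the strain nor the sex, and the protocol text used here stops before any step that separates endothelial nuclei. Input libraries, 2 at each age, are labelled as input nuclei of the same organ. The P6 ATAC-seq inputs are numbered 3 and 4, while the P6 endothelial ATAC-seq libraries are numbered 1 and 2. RNA-seq exists for endothelium and input at both ages, with 2 libraries each. The labels do not say whether 2 libraries of a group came from separate animals, so the spread between them may be technical.

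Most of the liver's capillary bed is formed by sinusoidal endothelial cells, which lack a continuous basement membrane, carry open fenestrae and take up waste molecules through scavenger receptors such as stabilin-2. They also send signals to hepatocytes: their BMP2 and BMP6 control hepcidin and with it iron balance, and their Wnt ligands and HGF act on zonation and growth. Around birth the liver still houses blood formation, and the sinusoids grow and mature during the weeks after birth. Open regions far from promoters often hold enhancers, so a change in them can show where the regulatory DNA in use differs between ages.

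The 250 bases before the transcription start are shown for genes of the lists described below, markers of other cell types aside. Shown are those whose promoter was covered, over at least 50% of the RefSeq window of 300 bases, by a gained or lost region. There were 4 such genes with a gained region and 4 with a lost region. RefSeq windows were at hand for 17492 of 21887 genes. Other regions lay on the start used for linking and are not shown, as at Gata4 and Abcg1 (gained) and Fabp4 (lost). The sequences are those of RefSeq, build GRCm38.p6, written 5′ to 3′ along the gene; capitals mark matches, on either strand, to 6 motifs. The letters searched were AGATAA for the GATA-family motif, TGANTCA for that of AP-1 factors, CCGGAAGT for that of ETS factors, CACGTG for the E-box motif, GGGCGG for that of KLF and SP factors and AACAAT for that of SOX factors.

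Ntn4, gained, chr10:93640799-93641048, plus strand: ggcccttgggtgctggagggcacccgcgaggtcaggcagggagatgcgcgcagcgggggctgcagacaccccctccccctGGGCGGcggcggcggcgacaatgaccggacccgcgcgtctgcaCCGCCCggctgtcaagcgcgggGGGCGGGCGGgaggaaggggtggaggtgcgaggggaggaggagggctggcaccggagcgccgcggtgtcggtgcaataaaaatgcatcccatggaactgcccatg
Zeb2, gained, chr2:45110278-45110527, minus strand: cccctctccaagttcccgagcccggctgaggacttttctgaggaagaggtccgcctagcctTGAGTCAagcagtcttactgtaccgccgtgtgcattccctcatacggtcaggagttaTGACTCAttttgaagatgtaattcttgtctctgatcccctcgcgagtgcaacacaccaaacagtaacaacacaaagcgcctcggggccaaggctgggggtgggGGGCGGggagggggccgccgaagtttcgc
Cxcr4, gained, chr1:128592300-128592549, minus strand: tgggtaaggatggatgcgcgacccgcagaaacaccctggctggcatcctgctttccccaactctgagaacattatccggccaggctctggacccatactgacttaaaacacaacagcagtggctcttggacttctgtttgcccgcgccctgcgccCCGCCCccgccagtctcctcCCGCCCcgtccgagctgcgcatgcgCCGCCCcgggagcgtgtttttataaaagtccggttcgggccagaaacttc
Ly6c1, gained, chr15:75048664-75048913, minus strand: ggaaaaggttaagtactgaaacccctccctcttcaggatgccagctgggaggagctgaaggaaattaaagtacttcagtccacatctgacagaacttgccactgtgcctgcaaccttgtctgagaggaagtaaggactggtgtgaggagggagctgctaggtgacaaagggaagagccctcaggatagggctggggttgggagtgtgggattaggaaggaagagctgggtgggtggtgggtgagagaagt
Igf2, lost, chr7:142666817-142667066, minus strand: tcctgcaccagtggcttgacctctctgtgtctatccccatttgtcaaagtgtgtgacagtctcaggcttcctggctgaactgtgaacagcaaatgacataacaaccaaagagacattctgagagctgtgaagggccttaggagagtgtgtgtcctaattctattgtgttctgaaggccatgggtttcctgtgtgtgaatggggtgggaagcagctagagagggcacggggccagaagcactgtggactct
Selp, lost, chr1:164115014-164115263, plus strand: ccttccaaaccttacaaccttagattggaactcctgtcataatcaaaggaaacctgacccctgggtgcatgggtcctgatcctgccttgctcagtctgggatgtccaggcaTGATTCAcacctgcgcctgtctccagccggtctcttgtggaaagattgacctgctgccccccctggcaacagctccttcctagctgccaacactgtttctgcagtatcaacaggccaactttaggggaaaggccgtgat
E2f2, lost, chr4:136180532-136180781, plus strand: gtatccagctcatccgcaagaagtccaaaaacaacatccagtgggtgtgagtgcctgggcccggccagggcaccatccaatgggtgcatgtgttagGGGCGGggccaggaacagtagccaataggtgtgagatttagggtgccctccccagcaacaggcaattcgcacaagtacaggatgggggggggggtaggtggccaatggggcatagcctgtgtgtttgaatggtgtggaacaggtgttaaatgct
Ndn, lost, chr7:62348027-62348276, plus strand: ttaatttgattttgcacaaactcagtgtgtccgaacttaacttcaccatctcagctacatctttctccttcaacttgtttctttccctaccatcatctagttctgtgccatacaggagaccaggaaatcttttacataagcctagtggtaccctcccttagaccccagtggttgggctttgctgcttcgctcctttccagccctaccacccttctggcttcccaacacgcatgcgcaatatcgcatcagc

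At the Ntn4 promoter, which serves a secreted netrin of the vessel wall, −log10(q) was 6.41 and 8.87 in the adult libraries and 5.99 and 2.77 in the P6 libraries. At that of Igf2, a fetal growth factor, it was 14.8 and 7.11 in the P6 libraries, and neither adult list held a peak. The Selp promoter (P-selectin, an adhesion molecule for leukocytes) likewise had 11.2 and 6.57 at P6 and no adult peak. At 3 of the 4 gained promoters the raw values of the ages overlapped, so the call rests on rank. The Cxcr4 promoter (a chemokine receptor) had 2.62 and 3.77 in adult and 3.99 and 1.85 at P6. Zeb2 had 6.68 and 5.48 against 5.88 and 3.03, and Ly6c1 had 2.25 and 5.40 against 3.46 and 2.88. The Zeb2 window held 2 AP-1 matches and the Selp window 1. Reads at Ly6c1 cannot be told apart with certainty from its close copy Ly6c2. Over all genes, gained regions covered the promoter windows of 120 genes and lost regions those of 128, and motif shares are given as a description: the AP-1 letters stood in 7.14% of gained, 6.82% of lost and 6.99% of all 21263 windows, and the GATA letters in 8.73%, 4.55% and 9.65%. The ETS letters stood in 3.17% of gained and 2.27% of lost windows, against 10.1% of windows covered by regions found in all 4 libraries and 5.15% of all windows. The E-box stood in 6.35%, 9.09% and 7.84% of gained, lost and all windows, the SOX letters in 5.56%, 9.09% and 9.05%, and GGGCGG in 63.5%, 62.1% and 46.2%. Windows covered by regions found in all 4 libraries held the GATA letters in 5.17%, those of AP-1 in 4.05%, the E-box in 11.1%, those of SOX in 4.99% and GGGCGG in 69.9%. Matches of different motifs overlapped in 0.339% of windows.

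The 4 endothelial lists held the endothelial markers of their label. Among the 25880 strongest peaks of each library, all 12 sinusoidal marker genes had a peak within 5 kb in each of the 4 lists, and 17 to 18 of 18 general endothelial genes did, against 7 to 10 and 8 to 10 in the inputs. Of 27 hepatocyte genes, 6 to 8 had a peak in the endothelial lists and 25 to 27 in the inputs. Of 18 Kupffer cell and macrophage genes 5 and 5 had a peak in the adult and 9 and 9 in the P6 endothelial lists, and of 18 lymphoid genes 5 and 5 against 9 and 8. Of 24 blood stem and myeloid genes 8 and 7 had one against 10 and 10, and of 19 erythroid genes 5 and 5 against 6 and 5. In the P6 inputs 7 and 4 Kupffer cell, 6 and 5 lymphoid, 8 and 6 blood stem and myeloid and 9 and 14 erythroid genes had a peak, and in the adult inputs 6 and 5, 5 and 4, 7 and 8, and 9 and 8. The adult libraries held 28.8 and 45.0 M tags and the P6 libraries 27.3 and 21.5 M (M stands for 1e6), per the file headers, and the deposited lists held 37022, 47334, 66025 and 47685 peaks. At the end of the equal lists −log10(q) was 1.03 and 3.39 in the adult libraries and 6.63 and 3.24 in the P6 libraries; the next peak had the same rounded value of 3.39, 6.63 and 3.24 in the 3 longer lists.

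The gained and lost regions lay among weaker peaks than the shared ones. Gained regions had a median −log10(q) of 3.78 and 5.65 in the 2 adult libraries, where regions found in all 4 libraries had 9.43 and 12.7. Lost regions had 10.3 and 5.34 in the P6 libraries, against 18.7 and 11.2. Below the equal lists, 76.8% of the gained regions still held a peak in the full list of the first P6 library and 32.5% in that of the second. Of the lost regions 26.1% held a peak in the full list of adult replicate 2, and none can have one in adult replicate 1, whose list was used whole. The raw values of the ages overlapped often for gained regions: at 1500 of them (45.9%) a P6 peak reached the lower of the 2 adult values, and at 549 (16.8%) it passed both. For lost regions an adult peak reached the lower P6 value at 1 region. The ends of the equal lists largely set this contrast. An adult peak outside them could reach only 3.39, while a lost region needed at least 6.63 and 3.24 at P6. A P6 peak outside them could reach 6.63, while a gained region needed only 1.03 and 3.39 in adult. In the full lists, longest for P6 replicate 1, 725 gained regions had no P6 peak of any strength and 2709 lost regions no adult peak of any strength. These counts, too, are not comparable between the classes. A gained region is therefore one that ranked higher in adult, and for most of them not one without a P6 peak. The call also moved with the list length: in lists of 20000 peaks 1999 regions were gained and 2019 lost, and these overlapped 10.3% of the 3266 gained and 12.9% of the 3665 lost regions. With all deposited peaks 1105 regions were gained and 8075 lost.

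Replicates shared more regions than ages did. The 2 adult lists shared 31221 of the 41986 regions in either, a Jaccard index of 0.744, and the 2 P6 lists had an index of 0.758. The 4 pairs of an adult with a P6 list had indices of 0.620 to 0.652. Regions found in all 4 libraries numbered 25111, and regions held by a single library 2415 to 3023, close to the number gained or lost. The patterns of 1 adult with 1 P6 library, which also hold 2 of the 4 lists, had 448 to 670 regions each. With 2 libraries against 2, an exact two-sided permutation test cannot give a p below 0.333, so no test was made of single regions.

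**Figure D1:**
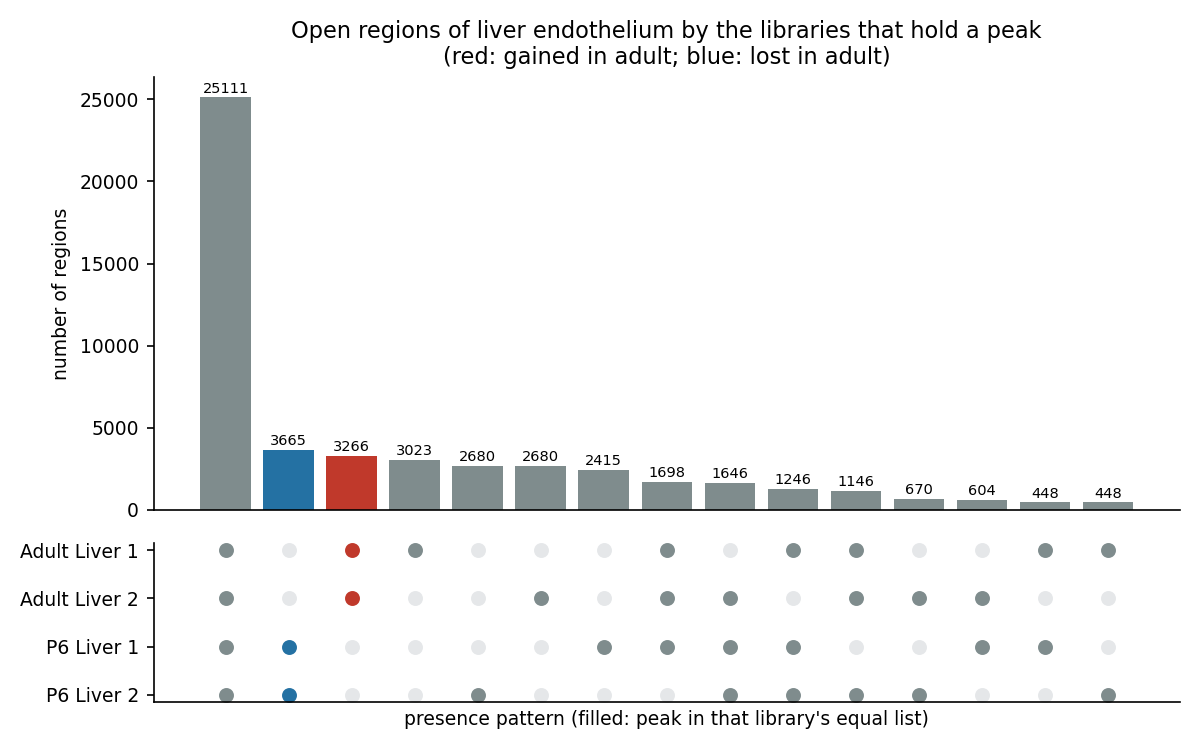
Number of open regions (vertical axis) for each of the 15 patterns of presence over the 4 equal lists (filled dots below). The regions in all 4 libraries number 25111, the 3665 lost (blue) and 3266 gained (red) regions come next, and the patterns of 1 library follow with 2415 to 3023.

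Gained and lost regions lay away from promoters, as did other regions not found in all 4 libraries. A protein-coding transcription start lay within 1 kb of 233 gained regions (7.13%) and 272 lost regions (7.42%), against 38.9% of the regions found in all 4 libraries. Median distances were 29.1, 25.3 and 7.32 kb. Both classes had a median width of 409 bases, against 732 for shared regions and 511 for all regions. Regions neither gained, lost nor shared by all 4 lists were narrower still, at 326. Gene bodies held 58.7% of the gained, 54.5% of the lost and 71.2% of the shared regions. The 18704 regions that were neither gained, lost nor shared by all 4 lists were close to the gained and lost ones. Of these, 8.21% lay within 1 kb of a start and 56.9% in gene bodies, at a median distance of 24.1 kb. Distance to a start is thus not particular to the age difference. In at least 1 adult input a peak was found at 20.6% of the gained, 9.41% of the lost and 61.9% of the shared regions, and in at least 1 P6 input at 35.5%, 43.9% and 84.1%. The input lists differ in length, from 25880 to 77560 peaks, so these shares are not comparable between ages.

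**Figure D2:**
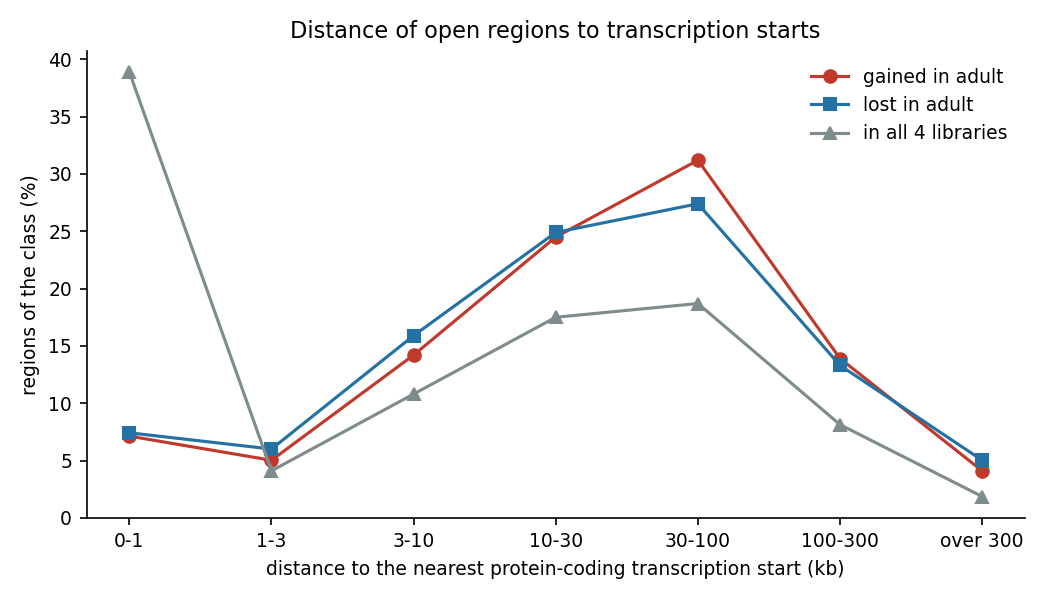
Share of each class of regions (vertical axis, %) by distance to the nearest protein-coding transcription start (horizontal axis, kb). Gained (31.2%) and lost regions (27.4%) are both most frequent at 30 to 100 kb, while 38.9% of the regions found in all 4 libraries lie within 1 kb.

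Linked to the nearest transcription start within 100 kb, 2679 gained regions fell to 2023 of 21887 protein-coding genes (9.24%) and 2994 lost regions to 2426 genes (11.1%). Of all 43710 linked regions 6.13% were gained and 6.85% lost, and these shares are the background for the lists below. A gene in a wide gene-free stretch collects more regions. The link is by distance only.

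**Figure D3:**
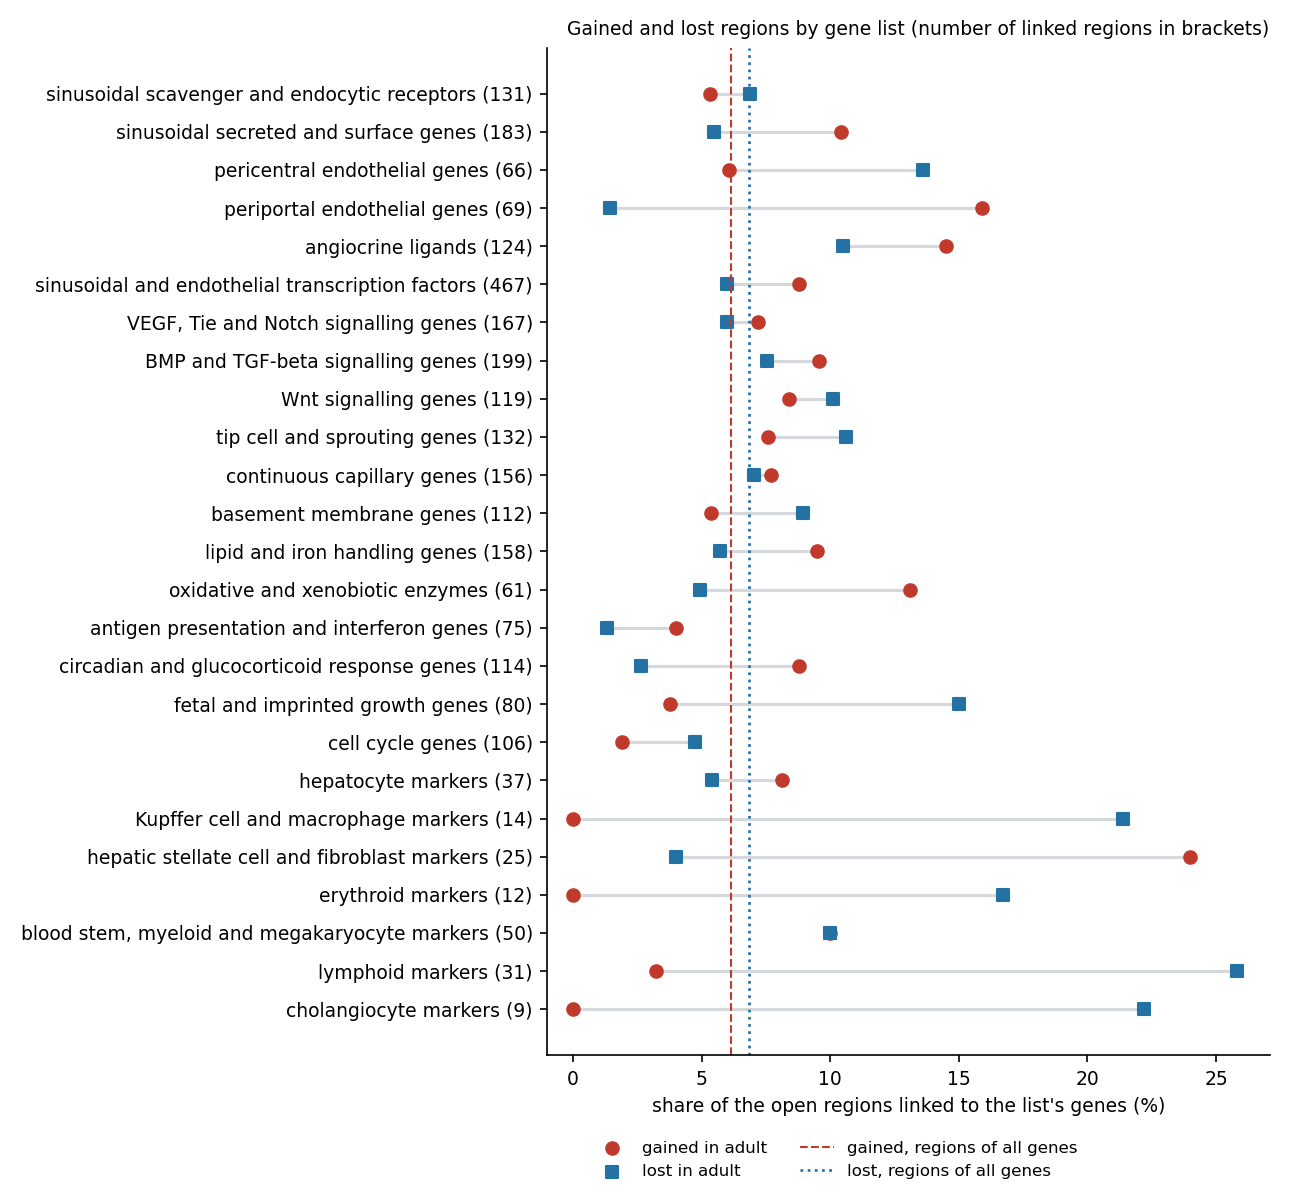
Share of the open regions linked to the genes of each list (horizontal axis, %) that were gained (red circles) or lost (blue squares); the vertical lines mark the shares over all genes, 6.13% and 6.85%. Periportal and angiocrine lists lie right of the lines for gained regions, fetal growth and pericentral lists for lost regions; the lists of other cell types, at the bottom, rest on 9 to 50 regions each.

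Genes of BMP signalling and iron balance held several gained regions. Bmp6, the ligand by which sinusoidal cells raise hepatocyte hepcidin, had 4 gained and no lost region. It had 9 linked regions in each adult list and 4 and 6 in the P6 lists; such separation follows from how the genes were chosen, here and below. All 4 lay inside the gene, 47.6 to 84.5 kb from its start. The region chr13:38407556-38407925 had −log10(q) values of 6.73 and 8.36 in adult and 4.28 in P6 replicate 1, with no peak in P6 replicate 2. At chr13:38393320-38394011 the adult values were 1.88 and 5.76, and neither P6 list held a peak. At chr13:38430243-38430576 the value of P6 replicate 1, 4.90, was above both adult values, 4.37 and 3.70, so this region was gained by rank only. At chr13:38410371-38411216 the values came close, with 2.96 and 6.25 in adult against 1.86 and 1.99 at P6.

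Bmp2, the second such ligand, had 3 gained regions, 14 regions in each adult list and 10 in each P6 list. Slc40a1, which encodes ferroportin, the iron exporter that hepcidin blocks, had 5 gained regions and none lost. Its regions numbered 10 and 10 in the adult lists and 4 and 5 in the P6 lists. The strongest gained region of this gene, chr1:45927881-45928162, stood 1.35 kb from the start with −log10(q) of 7.00 and 14.7 in adult. No P6 list, no input and none of the 22 adult and P6 endothelial lists of other organs, taken here and below at full length, held a peak there. At full length the lists of other organs held 27160 to 92863 peaks at P6 and 19464 to 45276 in adult. Counts of these full lists are therefore not comparable between ages. Ferroportin is also known from Kupffer cells, of whose 18 genes 5 and 5 had a peak in the adult lists and 9 and 9 in the P6 lists; their part in this result was not tested.

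In the list of BMP and TGF-beta genes 10 of 27 genes had only gained, 9 only lost, 1 both and 7 neither kind of region. Over all 21887 genes 1609 had only gained, 2012 only lost and 17852 neither kind, but 7169 of these have no linked region at all, and list genes hold more regions each (199 at 27 genes against 43710 at 21887), so counts of genes are not comparable between this or other lists and all genes. Of its 199 regions 9.55% were gained and 7.54% lost. Smad3, a transducer of TGF-beta signals, was on the other side, with 4 lost regions and none gained. The adult lists held 6 and 5 regions at this gene and the P6 lists 9 and 13. At chr9:63793681-63794056 the P6 values of −log10(q) were 15.5 and 9.51, and no adult list held a peak. Smad1 and Smad7, a BMP transducer and an inhibitor of the pathway, had 2 gained regions each.

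Ligands that act on hepatocytes and on the vessel itself went in both directions. Of 24 angiocrine genes 6 had only gained, 6 only lost and 3 both kinds of region, and 14.5% of the 124 regions were gained and 10.5% lost. Hgf, a growth factor for hepatocytes, had 3 gained regions, with 7 and 6 regions in adult and 3 and 3 at P6. Its region chr5:16541458-16542316 reached 12.6 and 11.9 in −log10(q) in adult against 3.56 in P6 replicate 1 and no peak in P6 replicate 2. Hgf is made by stellate cells as well. Of 18 stellate and fibroblast genes 4 and 6 had a peak in the adult lists and 4 and 5 in the P6 lists. Of the 25 regions linked to these genes 6 were gained, 3 of them at Hgf itself, and 1 was lost. The part of stellate cells in this result was not tested. Fgf1, a mitogen, had 4 lost regions, with 9 and 5 regions in adult and 10 and 10 at P6. Angpt2, which loosens Tie2 signalling, had 2 gained regions, with 5 regions in each adult list and 2 in each P6 list. Both gained regions had a P6 peak in a full list.

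**Figure D4:**
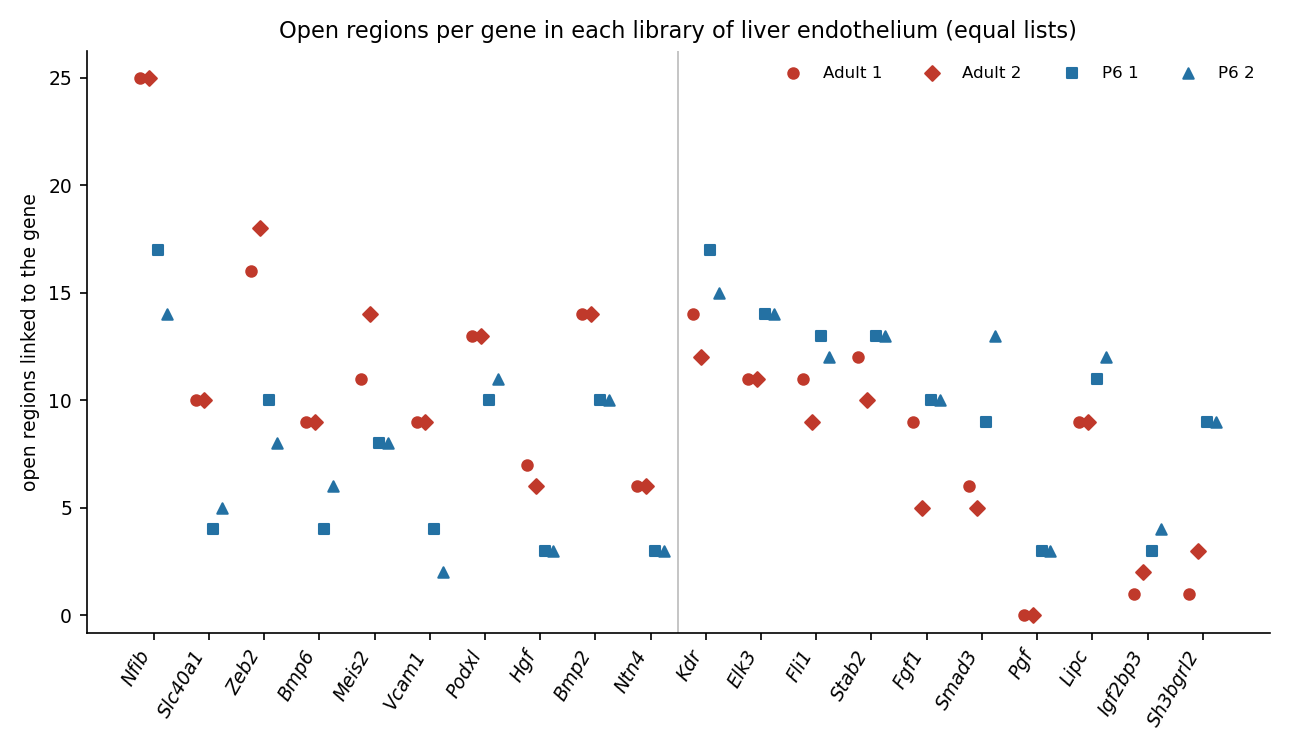
Number of open regions linked to each gene (vertical axis) in each of the 4 equal lists; genes left of the line had more gained than lost regions and genes right of it more lost than gained ones, which is how they were chosen. Nfib stands at 25 in both adult lists and 17 and 14 at P6; Pgf has 0 in both adult lists and 3 in both P6 lists.

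At the scavenger receptors of the sinusoidal cell the shares of regions lay close to the background: 5.34% of 131 regions were gained and 6.87% lost. By genes, 4 of 20 had a gained and 6 a lost region, and 13 had neither. The list held 102 and 105 regions in adult and 99 and 99 at P6. Stab2, the main receptor for hyaluronan, had 1 gained and 3 lost regions. At chr10:87020745-87021153 it had −log10(q) of 9.55 and 9.86 at P6, 3.08 in adult replicate 2 and no peak in adult replicate 1. Dab2, an endocytic adaptor, had 2 lost regions. Msr1, a macrophage and endothelial scavenger receptor, had 2 gained regions, both with a P6 peak in a full list. Lyve1, a receptor for hyaluronan, had 2 gained regions and 1 lost region.

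Among secreted and surface genes of sinusoidal cells 19 of 183 regions were gained (10.4%) and 10 lost (5.46%). Vcam1, an adhesion molecule for leukocytes, had 4 gained regions and no lost one. It counted 9 and 9 regions in adult and 4 and 2 at P6. All 4 gained regions of Vcam1 had a peak in the full list of P6 replicate 1, with −log10(q) between 4.73 and 5.75, under the end of the equal list at 6.63. At 2 of the 4 that value was above both adult values: 5.50 against 4.05 and 4.54, and 4.74 against 1.96 and 4.33. Tfpi, an inhibitor of coagulation, had 1 gained and 3 lost regions.

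Genes used to mark the portal and the central end of the sinusoid are described side by side, and their difference was not tested. Of the 69 regions at 14 periportal genes 11 were gained (15.9%) and 1 was lost (1.45%). Ntn4 had 3 gained regions, with 6 regions in each adult and 3 in each P6 list. Each of the 3 had a P6 peak in a full list. Sox17, an arterial transcription factor, had 3 gained and 1 lost region, and counted 8 and 8 against 6 and 6. Dkk3 and Acer2 had 2 gained regions each, and 9 of the 14 genes had none of either kind. Of the 66 regions at 13 pericentral genes 4 were gained (6.06%) and 9 lost (13.6%). Rab3b, a vesicle GTPase, had 3 lost regions, with 1 and 2 regions in adult and 5 and 5 at P6, and Selp had 2. Kit, a receptor of central sinusoids and of blood progenitors, had 2 gained regions, both with a P6 peak in a full list. Pericentral regions of all kinds numbered 48 and 44 in adult and 49 and 50 at P6.

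Transcription factor genes held the most regions, 467 at 49 genes, of which 8.78% were gained and 6.00% lost. Zeb2, a zinc finger repressor, had 5 gained regions, one of them on its promoter. It counted 16 and 18 regions in adult and 10 and 8 at P6. Meis2, a homeobox factor, had 4 gained regions and counted 11 and 14 against 8 and 8. Of the gained regions 0 of 5 at Zeb2 and 1 of 4 at Meis2 lacked a P6 peak in the full lists. Fli1 and Elk3, both ETS factors, had 3 lost regions each, none with an adult peak of any strength. Such counts are not comparable between gained and lost regions. Fli1 counted 11 and 9 regions in adult and 13 and 12 at P6, and Elk3 11 and 11 against 14 and 14. The strongest lost region of Fli1, chr9:32565195-32565650, had −log10(q) of 15.8 and 7.02 at P6. Gata4, the factor that specifies sinusoidal cells, had 1 region of each kind. The gained region lay on the start used for linking. Its −log10(q) was 2.46 and 4.52 in adult against 6.46 and 2.75 at P6, so it was gained by rank only.

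Among genes of vessel growth, a receptor and a ligand had lost regions and a phosphatase mostly gained ones. Of 23 genes of VEGF, Tie and Notch signalling 12 had neither kind, and the shares of 167 regions were 7.19% gained and 5.99% lost, close to the background. Kdr, the main VEGF receptor, had 2 lost regions, with 14 and 12 regions in adult and 17 and 15 at P6. Both still held a weak peak in adult replicate 2, at −log10(q) of 2.51 and 3.31. Jag1, a Notch ligand, had 2 lost regions; at chr2:137204381-137204816 the P6 values were 32.6 and 14.5 against 2.02 in adult replicate 2. Ptprb, the phosphatase that restrains Tie2, had 4 gained regions and 1 lost region, with 17 and 17 against 13 and 12.

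Among tip cell and sprouting genes 7.58% of 132 regions were gained and 10.6% lost. Pgf, a ligand of the VEGF family, had 3 lost regions and no other, so that its count was 0 in both adult lists and 3 in both P6 lists. At its 3 regions 12, 9 and 12 of the 12 P6 and 6, 2 and 5 of the 10 adult endothelial lists of other organs held a peak. These are full lists, which are mostly longer at P6, so the counts are not comparable between ages. Unc5b, a netrin receptor, and Igf1r, the IGF-1 receptor, had 2 lost regions each. The Wnt list had 8.40% gained and 10.1% lost of 119 regions, with 2 lost regions each at the receptors Fzd4 and Fzd5 and at Tcf7, a transcription factor that is also a lymphoid marker. In the continuous capillary list the shares were 7.69% and 7.05%. Podxl, a surface sialomucin, had 4 gained regions, all with a P6 peak in a full list. Cdh5, the cadherin of endothelial junctions, had 2 lost regions. Basement membrane genes had 5.36% gained and 8.93% lost of 112 regions, with 2 lost regions at Col15a1.

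Fetal growth genes had more lost than gained regions. Of 23 genes measured 7 had only lost, 1 only gained, 2 both kinds and 13 neither, and 12 of 80 regions were lost (15.0%) against 3 gained (3.75%). Igf2bp3, an RNA-binding protein of fetal tissues, had 2 lost regions. At chr6:49217804-49218287, 2.85 kb from its start, −log10(q) was 22.6 and 10.5 at P6 with no adult peak. In other organs 12 of 12 P6 and 4 of 10 adult lists held a peak at full length, where the P6 lists are mostly longer. Igf2r and Peg10, both imprinted, had 2 lost regions each, and all 4 lacked an adult peak. The list total was 48 and 48 in adult and 65 and 60 at P6.

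Of 31 cell cycle genes 25 had neither kind of region, and 1.89% of 106 regions were gained and 4.72% lost. Mki67, the proliferation marker, had 2 lost regions, at 52.3 and 77.3 kb. Circadian and glucocorticoid response genes had 8.77% gained and 2.63% lost of 114 regions. Of the 10 gained regions 4 were at Tsc22d3, a glucocorticoid-induced leucine zipper gene, which counted 11 and 13 regions in adult and 7 and 5 at P6. All 4 had a P6 peak in a full list. Oxidative and xenobiotic enzymes had 13.1% gained and 4.92% lost of 61 regions, with 2 gained regions at Aldh2. Antigen presentation and interferon genes lay below the background in both directions, at 4.00% and 1.33% of 75 regions. By genes 19 of 23 had neither kind, beside 17852 of 21887 over all genes, with the limit on gene counts given for the BMP list. Lipid and iron genes had 9.49% gained and 5.70% lost of 158 regions; beside Slc40a1 and Bmp6, Lipc, the hepatic lipase gene, had 3 lost regions, none with an adult peak.

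Genes of other cell types, measured in the same way, had few regions but some moved with age. Lymphoid genes had 8 of 31 regions lost (25.8%) and 1 gained; 3 of these 8 were at Ebf1, a B cell factor, and 2 at Tcf7. Kupffer cell genes had 3 of 14 regions lost, at C1qa, Csf1r and Vsig4, and none gained. Erythroid genes had 2 of 12 lost and none gained, and cholangiocyte genes 2 of 9. Blood stem and myeloid genes had 5 gained and 5 lost of 50. The gained ones were 3 at Cd34 and 2 at Kit, which is also in the pericentral list. The lost ones were 2 at Cd34, 2 at Runx1 and 1 at Gp9. Stellate and fibroblast genes had 6 gained of 25, of which 3 were at Hgf, 2 at Col1a2 and 1 at Pdgfra, and 1 lost, at Col1a2. Hepatocyte genes had 3 gained and 2 lost of 37. The lost regions at Ebf1 also had a peak in 12 of 12 P6 and in 10, 8 and 7 of 10 adult endothelial lists of other organs. That at Slc4a1, an erythroid anion exchanger gene, had one in 12 of 12 and 9 of 10. These are full lists, mostly longer at P6. The part of other cells in the lost regions was not tested, and in bulk nuclei fewer cells of a type and less accessibility per cell cannot be told apart.

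Over all genes, Nfib had the most gained regions, 9, and no lost one. Nfib encodes a transcription factor of the nuclear factor I family. It counted 25 and 25 regions in adult and 17 and 14 at P6. At 4 of its 9 regions none of the 22 endothelial lists of other organs held a peak, and 8 of the 9 had a peak in the full list of P6 replicate 1. At 5 of these 8 the P6 value was above both adult values, as at chr4:82306858-82307124 with 6.62 against 3.47 and 5.02, so these regions were gained by rank only. Next came Adgrl2, Ankrd55, Kat2b, Ppp3ca, Rap1gds1, Slc40a1, Zeb2, Galnt15 and Mbnl2 with 5 each. In Kat2b, a histone acetyltransferase gene, 4 of the 5 lacked any P6 peak, and 3 stood in a row inside the gene at chr17:53604153-53604425, chr17:53606978-53607245 and chr17:53609815-53610113. No input and no endothelial list of another organ, adult or P6, held a peak at these 3 sites, and −log10(q) ran from 4.32 to 9.42 in the adult lists.

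Sh3bgrl2 had the most lost regions, 6, with 1 and 3 regions in adult and 9 and 9 at P6. It encodes a small thioredoxin-like protein. None of the 6 had an adult peak of any strength. Ablim1, an actin-binding protein gene, followed with 5, with 4 and 2 regions in adult against 12 and 11. Carmil1, Cgnl1, Fgf1, Gramd4, Gsg1l, Irf2bp2, Nars2 and Nenf had 4 lost regions each. At Cgnl1, which encodes a junction protein, the count was exactly 4 in both adult lists and 8 in both P6 lists. In all, 11 genes had 5 gained regions and 20 had 4 lost regions; of these ties, the genes with fewest regions of the other kind, then the first by name, are given.

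The strongest single lost regions were far above the end of the lists. A region within Rbfox1, chr16:5973870-5974880, had −log10(q) of 44.3 and 31.7 at P6, enrichments of 8.83 and 9.09 over the local background as the authors' caller gave them, and no adult peak. A P6 input held a peak there, and none of the 22 other endothelial lists did. The region chr6:29318781-29319309 on the start of Fam71f1 had 45.5 and 22.0 and no adult peak. In other organs 11 of 12 P6 and 1 of 10 adult lists held a peak there, at full length, where the P6 lists are mostly longer. At Cobll1, chr2:65182687-65183211, the P6 values were 27.6 and 21.5 and adult replicate 2 had 3.21. The 10 strongest lost regions had a lower P6 value of 20.1 to 31.7, and 7 of the 10 had no adult peak.

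Raw values depend on the library as well: the median −log10(q) of the equal lists was 6.47 and 9.11 in adult and 14.5 and 8.09 at P6. The strongest gained regions had lower raw values than the strongest lost ones. The first, chr12:94334417-94335140, stood in a gene-poor stretch, 1357 kb from the start of Flrt2, with −log10(q) of 23.0 and 27.0 in adult and 6.50 in P6 replicate 1. The region chr13:33966516-33967029, 0.124 kb from the start of Nqo2, a quinone reductase gene, had 17.7 and 19.3 in adult and 5.05 in P6 replicate 1, and no input or other organ held a peak. A region inside Ankrd55, chr13:112335341-112336026, had −log10(q) of at least 15.8 in both adult libraries and no P6 peak, and all 4 inputs held one. The 10 strongest gained regions had a lower adult value of 15.0 to 23.0, and 2 of the 10 had no P6 peak.

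The regions were then looked up in endothelium of 5 other organs, which took no part in choosing them. With all lists cut to 19464 peaks, gained regions were found more often in adult than in P6 endothelium of brain, heart, kidney, lung and retina. On the mean over organs, 9.02% of the gained regions had a peak in an adult library and 5.18% in a P6 library, a difference of 3.84 percentage points. In 5 of 5 organs every adult library stood above every P6 library. The largest difference was in kidney, at 11.5% ± 0.303 (SD, n = 2) in adult against 4.03% ± 0.108 (n = 2), and the smallest in retina, at 5.47% ± 0.0650 (n = 2) against 3.89% ± 0.214 (n = 3). An exact two-sided permutation of the age labels within organs gave p = 4.63e-05 over 10 adult and 12 P6 libraries. The adjusted p over both comparisons was 4.63e-05, the smallest value that the 21600 arrangements can give. These arrangements treat the libraries as independent. The labels do not say whether libraries of different organs came from the same animals. If they did, the p-values of this test are too small. The direction depended on the list length: with all deposited peaks, of which the P6 lists mostly held more, the difference was -14.6 points (exact permutation p = 0.0031).

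Lost regions showed the opposite order and a wider gap. A P6 library of another organ held a peak at 17.9% of them and an adult library at 9.23%, a difference of -8.65 percentage points. Again no library of either age overlapped with the other within an organ. Heart had 21.8% ± 0.560 (n = 2) at P6 against 10.2% ± 0.0193 (n = 2) in adult, kidney 20.9% against 9.28% and lung 19.8% against 8.64%. Brain and retina had lower P6 shares, at 13.7% against 8.74% in adult and 13.1% against 9.32%. Shared regions were also found less often there, at 51.0% and 45.0% in adult and 50.7% and 47.4% at P6, against 53.5 to 59.2% in heart, kidney and lung. The exact permutation test gave the same p = 4.63e-05, adjusted p = 4.63e-05, with the same limit on shared animals. Regions found in all 4 liver libraries had a peak in 53.9% on average in adult and 53.1% in P6 libraries, a gap of 0.792 points that was described and not tested.

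**Figure D5:**
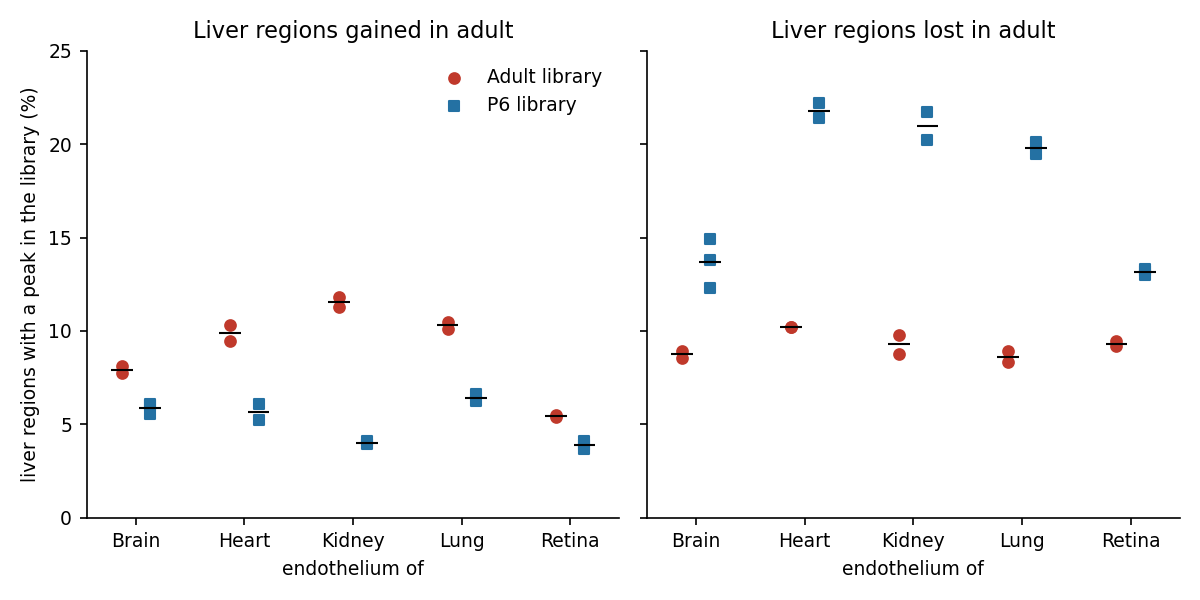
Share of the liver regions gained (left) or lost (right) in adult that hold a peak (vertical axis, %) in each adult (red circles) and P6 (blue squares) endothelial library of 5 other organs, lists cut to 19464 peaks; black lines are means. In each organ adult libraries lie above P6 libraries for gained regions and below them for lost regions.

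Many of these regions were not seen elsewhere at this list length. No adult library of another organ held a peak at 66.9% of the gained regions, and no P6 library at 49.5% of the lost regions, against 21.1% and 20.5% for regions found in all 4 liver libraries. Lost regions with a P6 peak in all 5 other organs numbered 188 (5.13%), and gained regions with an adult peak in all 5 numbered 29 (0.888%).

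Endothelium of embryos labelled E12 held lost regions far more often than gained regions. In lists cut to 19464 peaks, 22.8 to 25.3% of the lost and 3.92 to 4.50% of the gained regions had a peak in the 3 brain libraries. In the 4 heart libraries the shares were 19.8 to 22.1% and 4.90 to 5.48%, and in the 4 trunk libraries 25.1 to 27.2% and 2.82 to 3.89%. In the full lists, of 39096 to 120456 peaks, the trunk held 80.3% of lost and 42.6% of gained regions on average. Median −log10(q) was 10.3 and 5.34 for lost regions at P6 and 3.78 and 5.65 for gained regions in adult, and the part of peak strength was not tested. No E12 liver library was analysed here.

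The same rule was applied to other organs with 2 libraries per age. At 19464 peaks liver endothelium had 1955 gained (7.32%) and 1982 lost regions (7.42%). Heart had 2475 (8.98%) and 2968 (10.8%), kidney 1656 (5.97%) and 1942 (7.00%), and lung 1820 (6.39%) and 3016 (10.6%). Of the liver's gained regions, heart shared 173 (8.85% of the liver's and 6.99% of the heart's), kidney 177 (9.05% and 10.7%) and lung 119 (6.09% and 6.54%). Of the lost regions, heart shared 282 (14.2% of the liver's and 9.50% of the heart's), kidney 232 (11.7% and 11.9%) and lung 230 (11.6% and 7.63%). The overlap of all regions between organs was not computed. No test was made of these differences between organs.

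Nuclear RNA of the same endothelium differed widely between the ages. The libraries held 16.1 and 13.0 M estimated reads in adult and 11.2 and 10.7 M at P6. Liver input libraries held 13.6 and 14.8 M in adult and only 6.10 and 3.81 M at P6. By edgeR's quasi-likelihood test with Benjamini-Hochberg adjustment, 14918 of 61549 transcripts tested (24.2%) were higher in adult and 9968 (16.2%) lower, counting those with an adjusted p under 0.05 whose log2 fold change was 1 or more, or -1 or less. The counts moved with the fit: without 1 library they were as low as 7263 higher (without P6 replicate 1) and 4198 lower (without P6 replicate 2), over 24 endothelial libraries 8541 and 3830, and DESeq2 gave 17913 and 14955. Of the transcripts called by edgeR, 58.1% of the higher ones stood above input in adult and 76.0% of the lower ones above input at P6. Each class was picked for high values in the same endothelial libraries, which by itself raises this share. The shares therefore cannot tell from which cells the transcripts came. Of the same transcripts, 53.7% of the higher and 47.7% of the lower transcripts were called in the same direction between adult and P6 input. Among all 61549 transcripts tested, 9327 were called higher and 5906 lower in adult than in P6 input. The share of all transcripts that stood above input was not computed. Without gene names for the transcripts, RNA levels could not be set beside the regions of a gene. The 2 transcripts with the lowest p in each direction are given as examples chosen for that p.

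Values in CPM are reads per 1e6 reads left after the low-count filter, with the library size scaled by edgeR's TMM factor. ENSMUST00000027650.12 stood at 819 and 930 CPM in the adult endothelial libraries and 10.8 and 11.8 at P6, and its input values were 71.5 and 67.7 in adult and 2.97 and 3.68 at P6. The log2 fold change was 6.27 ± 0.26 (SE), adjusted p = 0.00177 by edgeR. ENSMUST00000099153.9 rose by 6.20 ± 0.27, from 3.98 and 3.23 to 282 and 248 CPM. ENSMUST00000237439.1 fell by 6.06 ± 0.29 on the log2 scale, from 132 and 141 CPM at P6 to 1.78 and 2.30, and ENSMUST00000201260.3 fell by 5.67 ± 0.27. Each of the 4 had the same adjusted p by edgeR. In these 4 transcripts the input libraries moved in the same direction as the endothelial ones.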

How the data were processed

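ATAC-seq peak lists and nuclear RNA-seq tables of mouse liver were used as the authors deposited them, with peak lists of the other organs for comparison. Peaks were called by the authors with MACS2 2.1.2, per the file headers, in each library alone, with no control, in broad mode, with a shift of -100, an extension of 200, 1 tag kept per position and q of 0.05 for strong and 0.1 for broad regions. The deposited lists give −log10 of the q-value and a fold ratio over local background for each peak. The submitters' processing notes list, with no role given, mm10, Bowtie2, SAMtools 1.13, Picard, MACS2, DiffBind 3.2, R 4.1, DESeq2 1.32.0 and Salmon 1.5.1. The expected counts in the deposited RNA tables are estimated counts per transcript and were rounded; strand settings are not given in the sources used here.

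Lists were cut to equal length by −log10(q), ties by fold, and joined wherever they shared a base. Regions were linked to the nearest transcription start within 100 kb. Starts came from the RefSeq promoter table (GRCm38.p6) for 17492 of 21887 genes; for the others, whose strand was not at hand, the nearer gene end stood in, which departs from the planned use of gene starts. RNA was tested with edgeR 4.0.16 (TMM, low-count filter) on 8 liver libraries with 1 mean per group, per transcript and not, as planned where possible, per gene. R was 4.3.3, Python 3.11.15 and DESeq2 1.42.0. Liver RNA replicates differed by 9.16 to 55.7 times counting noise (chi-square per degree of freedom), so none was a duplicate. On simulated data with 200 of 58205 tested transcripts changed between adult and P6 liver endothelium, 11 of 100 changed by 2-fold and 91 of 100 changed by 4-fold were recovered, with 2 other calls. The simulated counts had a lower spread than these libraries, whose common coefficient of variation beyond counting noise was 0.641. The simulation therefore checks the code and does not give the power or the false calls in these data. Depth of a peak list is the number of tags; no interval can be given for a peak's presence.

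Named genes were, in each list, up to 4 with the largest difference between gained and lost regions, the 10 genes with the most regions of each kind, and the 10 strongest regions of each kind. Some further list members are named with their counts and were chosen after their values were seen. The values of 1 list member are not reported here. The members and lists were chosen with earlier results of these data known. Alternatives were all deposited peaks, 20000 peaks, ranking by fold, −log10(q) of at least 5, 50% overlap, each library or organ left out, and for RNA DESeq2, other factors, no filter, other sets of libraries and a replicate block, which was also added to the comparison with input.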

Additional observations from a re-analysis of the deposited data

Results flagged for a closer look

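The adult minus P6 log2 difference, taken with its sign, was higher in liver endothelium than in whole-liver input for 89 transcripts and lower for 54. These are calls of edgeR's interaction term (adjusted p under 0.05 and at least 1 on the log2 scale). They were picked out because the effect differed between the 2 kinds of sample by a test of the difference itself. Lower means more negative, not a smaller change: 42 of the 54 were called lower in adult endothelium. Of the 89, 70 were called higher in adult endothelium. With the replicate number as a block, over all 8 libraries or within each age, edgeR called 0 in either direction, at a lowest adjusted p of 0.142 and 0.129. At an unadjusted p under 0.05 and the same size the 2 fits held 4483 and 5782 higher and 2582 and 3739 lower signed differences. Both calls thus depend on leaving the replicate number out of the model, where the lowest adjusted p was 0.046. Of the transcripts called within endothelium, 0.469% of the higher and 0.421% of the lower ones were among them.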

How the results depend on the processing

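Of 60 alternatives computed, 34 kept their direction and their side of the test's threshold or, for counts, stayed within 1.5 times the reported count, 25 moved further and 1 reversed. Gained regions numbered 3266, and 1105 with all deposited peaks, 1999 with 20000 peaks per library, 983 at −log10(q) of at least 5, and 725 when no P6 peak in the full lists was allowed, a setting chosen after seeing the data. Lost regions numbered 3665, and 8075 with all deposited peaks and 2019 with 20000 peaks. Leaving out 1 library gave 4417 to 6383 gained and 4913 to 6379 lost regions; fewer lists have to agree there, so the counts rise by construction. Counting 50% overlap left both classes as they were, which follows from the joining of peaks. The difference of gained regions in other organs reversed to -14.6 points with all deposited peaks (exact permutation p = 0.0031). It was 2.92 to 4.40 points with 1 organ left out. The limit on shared animals given above holds for this p as well. The cause of the reversal was not tested. For lost regions the difference was -38.7 points with all deposited peaks.

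RNA calls in adult endothelium were 14918 higher and 9968 lower. DESeq2 gave 14955 lower. A fit over 24 endothelial libraries gave 8541 higher and 3830 lower. Leaving out 1 library gave 7263 to 9323 higher and 4198 to 7493 lower, with the lone sample taken to vary like the other groups. RLE factors shifted the median log2 fold change by -0.19, from 0.32 to 0.12, and gave 13730 higher and 11208 lower. With the replicate number as a block the fit gave 12538 higher and 8291 lower; same-numbered adult and P6 endothelial samples had a correlation of 0.00 in their deviations, and same-numbered adult endothelial and input samples 0.33, so the labels and this check do not settle whether the adult numbers pair endothelium with input. With the block, over all libraries or within each age (both added after seeing the data), edgeR's signed difference between the endothelial and input changes, higher for 89 and lower for 54 transcripts without it, fell to 0 and 0 calls, with 4483 and 2582 (5782 and 3739 within each age) of at least 1 on the log2 scale at an unadjusted p under 0.05. No paired analysis was possible because presence of a peak comes from no test, for the region counts. The length of the deposited lists did not follow the number of tags: adult replicate 1 had 28.8 M tags and 37022 peaks, P6 replicate 1 27.3 M and 66025, and P6 replicate 2 21.5 M and 47685. The cause was not tested.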
